A study of Mus musculus with 8 samples.

Results

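The 44 genes described here are listed by name as targets of hypoxia-inducible factor (HIF) and as enzymes, transporters and regulators of glycolysis. They were followed in 5555-mEGFP cells, a mouse melanoma line carrying a green fluorescent label, on Illumina bead arrays that measured total RNA. Of the 44 genes, 39 had a probe that could be named, and 30 were kept after a filter that asked for a detection p-value under 0.01 on at least 2 of the 8 arrays. The whole data set held 7357 genes after the same filter. The study crossed culture with drug and gave 4 groups of 2 arrays. In mono-culture the melanoma cells grew alone, and in co-culture they grew with MAF2-mCherry fibroblasts, from which they were separated by sorting the mEGFP-positive fraction. Each culture received 0.1% DMSO, the solvent, or PLX4720, an inhibitor of mutant BRAF kinase, for 24 h. The labels give the PLX4720 dose as 1 mM, and whether that unit is right could not be checked against another source. All cells were of 1 melanoma line and all co-cultures used 1 fibroblast line. For the mono-cultures, the sources used here do not say whether they were sorted too. Nothing states that the 2 arrays of a group came from separate cultures, so p-values measure the spread between arrays, which may be technical.

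HIF is a transcription factor made of an oxygen-regulated alpha subunit, encoded by Hif1a among others, and a stable beta subunit, Arnt. Prolyl hydroxylases such as Egln1 and Egln3 mark the alpha subunit for destruction when oxygen is present, and Egln3 and Egln1 are themselves HIF targets. HIF raises glucose uptake, nearly every step of glycolysis and lactate production, and in tumours it also drives angiogenic factors such as Vegfa.

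HIF binds a short core sequence, ACGTG or GCGTG. As examples, windows of 6 of the 16 members called in a comparison below are printed. Each holds the 250 bases before the annotated start, 5′ to 3′ on the strand of the gene (RefSeq, GRCm38.p6). The core is in capitals on either strand, so that CACGT and CACGC mark the reverse orientation. CACGTG is its own reverse complement and counts as 2 overlapping matches.
Hk2 (chr6:82774455-82774704, minus strand): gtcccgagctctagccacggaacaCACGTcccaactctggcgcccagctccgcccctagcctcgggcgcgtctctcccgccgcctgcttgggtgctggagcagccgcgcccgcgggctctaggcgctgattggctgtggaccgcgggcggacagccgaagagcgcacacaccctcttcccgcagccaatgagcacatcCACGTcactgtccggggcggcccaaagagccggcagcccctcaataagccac
Slc2a1 (chr4:119108495-119108744, plus strand): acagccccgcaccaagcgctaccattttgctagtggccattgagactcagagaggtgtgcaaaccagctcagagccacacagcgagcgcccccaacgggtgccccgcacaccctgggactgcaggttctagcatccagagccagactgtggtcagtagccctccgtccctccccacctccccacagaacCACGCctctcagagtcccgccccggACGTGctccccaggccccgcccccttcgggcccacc
Egln3 (chr12:54203875-54204124, minus strand): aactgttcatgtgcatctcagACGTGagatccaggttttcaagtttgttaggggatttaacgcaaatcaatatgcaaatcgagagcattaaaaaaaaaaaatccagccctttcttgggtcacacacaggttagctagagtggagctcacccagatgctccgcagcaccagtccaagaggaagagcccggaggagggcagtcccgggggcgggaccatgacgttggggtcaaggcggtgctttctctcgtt
Pgam1 (chr19:41911621-41911870, plus strand): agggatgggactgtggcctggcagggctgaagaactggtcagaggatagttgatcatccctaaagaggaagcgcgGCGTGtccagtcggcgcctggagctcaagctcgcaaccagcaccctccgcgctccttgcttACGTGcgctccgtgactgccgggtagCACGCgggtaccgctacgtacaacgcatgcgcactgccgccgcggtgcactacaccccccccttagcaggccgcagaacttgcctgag
Ldha (chr7:46845554-46845803, plus strand): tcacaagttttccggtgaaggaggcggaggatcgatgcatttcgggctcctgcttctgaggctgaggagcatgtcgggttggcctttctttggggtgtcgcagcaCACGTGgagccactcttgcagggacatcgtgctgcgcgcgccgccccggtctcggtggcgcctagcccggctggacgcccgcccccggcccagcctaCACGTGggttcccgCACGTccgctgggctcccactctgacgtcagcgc
Mgarp (chr3:51396548-51396797, minus strand): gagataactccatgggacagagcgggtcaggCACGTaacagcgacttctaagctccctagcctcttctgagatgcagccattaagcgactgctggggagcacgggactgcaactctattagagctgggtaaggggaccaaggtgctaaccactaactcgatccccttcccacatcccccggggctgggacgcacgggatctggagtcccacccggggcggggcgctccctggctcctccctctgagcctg
In the windows printed, Ldha held 5 matches, Pgam1 3, Hk2 and Slc2a1 2 each, and Egln3 and Mgarp 1 each. Ldha has another window, not printed, with 1 match. Not every called member was like these examples. The window of Eno2 held no core, and Vegfa, Pdk1, Kdm3a and Pfkm each had a window without one beside a window with one. Of the 27 kept members with a window, whether called or not, 25 (92.6%) held a core. Over all members, 39 of 44 genes had such a window, and 36 of them (92.3%) held a core in at least 1 window, against 41.5% of 27025 genes. Counted by window, the share was 78.9% of the members' 57 windows and 38.6% of all 32851 windows. The members were listed as HIF targets and glycolysis genes, so a higher share was built into the list and is no separate finding. Bnip3l, Ero1l, Ndrg1, Plod2 and Slc2a3 were not matched to a window. A match describes these letters and is not a measured binding site.

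The arrays resembled each other in quality. Between 37.96% and 39% of the 25697 probes were detected per array, and the replicate correlation over kept probes was 0.99 to 0.995. The drug label was checked on 12 measured genes driven by ERK, the kinase at the end of the BRAF pathway. In mono-culture 9 fell with PLX4720 and none rose, with a median log2 fold change of -1.96, and in co-culture 9 fell and Egr1 rose, with a median of -1.56. None of the 10 named melanocyte lineage markers, Mitf, Tyr and Dct among them, was detected on any array. Of 18 fibroblast markers, Dcn, Dpt, Fap, Lum, Postn and Thy1 were detected on no array. The summed linear intensity of the 18 markers was 5169 to 5223 in mono-culture and 4453 to 4924 in co-culture with DMSO, and with PLX4720 it was 10520 to 17130 and 11780 to 12350. Their part in the results below was not tested.

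Levels are given throughout as background-corrected, quantile-normalised log2 intensities per array, replicate 1 before replicate 2, and differences as log2 fold changes with the standard error (SE) and the adjusted p from limma over all 7357 genes, called at an adjusted p under 0.05. A level is an average over all cells on an array, so fewer expressing cells and less RNA per cell cannot be told apart. Of the 30 members, 16 were called in at least 1 of the 4 comparisons between groups, against 47.4% of all genes.

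**Figure D1:**
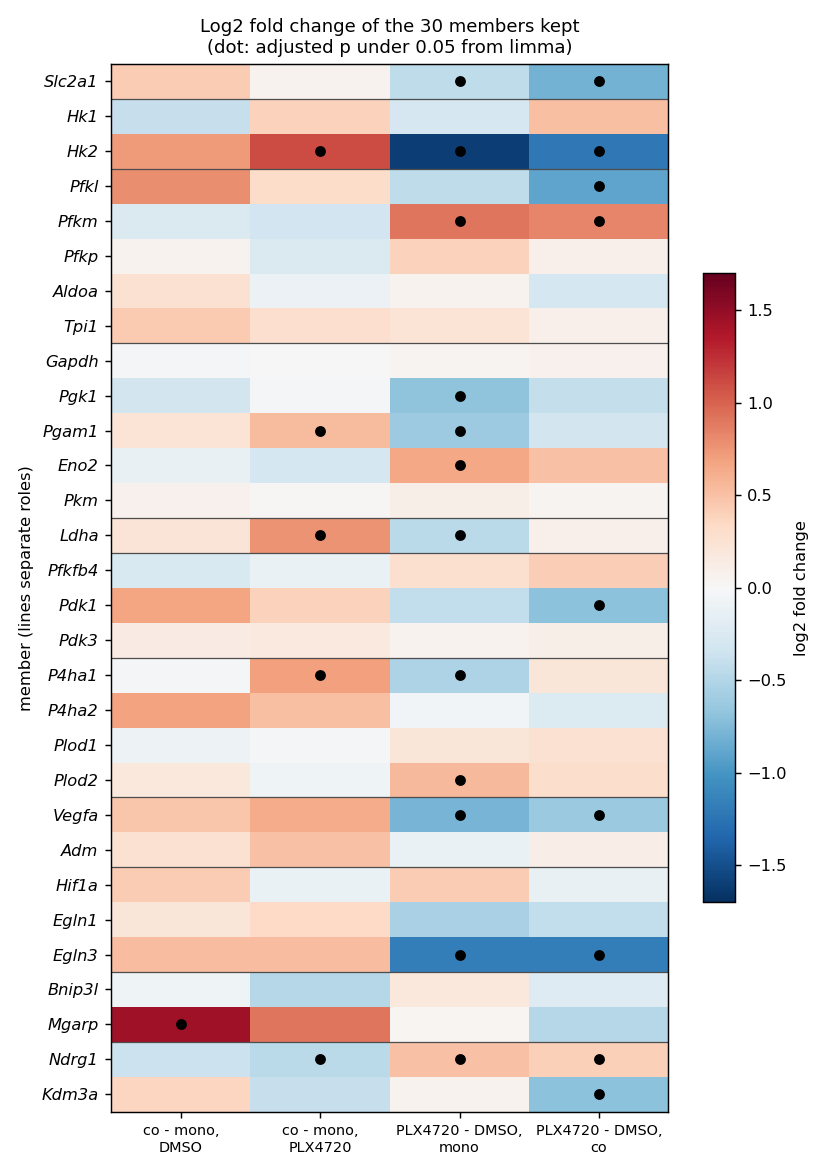
Log2 fold change of each of the 30 members kept (rows, ordered by role) in 4 comparisons (columns), with colour from lower (blue) to higher (red) and a dot where the adjusted p was under 0.05. Dots fall on 1, 5, 12 and 9 members from left to right, and the colour of Hk2, Egln3, Vegfa and Slc2a1 turns to blue in both PLX4720 columns.

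The first question was whether contact with fibroblasts moved these genes without the drug. In DMSO 1 of the 30 members, Mgarp, was called higher in co-culture and none was called lower, against 0.625% and 1.03% of all genes. Mgarp encodes a mitochondrial membrane protein. Its level was 5.73 and 6.34 in mono-culture and 7.42 and 7.54 in co-culture. It rose by 1.45 (SE 0.27, adjusted p = 0.032), or 2.72-fold, and the arrays of the groups did not overlap. Without background subtraction the difference was 0.71 and passed.

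The members next in order of p did not pass the test. Pfkl, the liver-type phosphofructokinase, stood at 10.27 and 10.46 in mono-culture and at 11.27 and 11.03 in co-culture, a difference of 0.79 (SE 0.16, adjusted p = 0.0509). Hk2, the inducible hexokinase that traps glucose in the cell, had levels of 9.73 and 9.60 against 10.34 and 10.43, a difference of 0.72 (SE 0.19, adjusted p = 0.116). P4ha2, a collagen prolyl hydroxylase subunit, read 5.59 and 5.92 against 6.48 and 6.41, a difference of 0.69 (SE 0.18, adjusted p = 0.114). In none of these 3 genes did the levels of the groups overlap. Pdk1, the kinase that holds pyruvate out of the mitochondrial oxidation route, read 7.55 and 7.63 against 8.27 and 8.25 (difference 0.67, adjusted p = 0.124). Egln3 read 6.67 and 6.73 against 7.21 and 7.23 (difference 0.52, adjusted p = 0.127).

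Across the members the arrays of the culture groups were apart in 19 of 30 genes, 16 of them higher in co-culture, against 49.1% of all genes apart in either direction. The median difference was 0.21, and 0.01 over all genes. At an unadjusted p under 0.05 there were 11 members higher and 1, Ndrg1, lower. The share of all genes at that threshold was not counted, so these counts cannot be set against it. The call of Mgarp was lost without mono-culture DMSO replicate 1 (adjusted p = 0.195), without co-culture DMSO replicate 1 (0.166) or 2 (0.187) and without co-culture PLX4720 replicate 1 (0.066) or 2 (0.068), and without the detection filter (0.1). Without mono-culture PLX4720 replicate 1 or 2, Hk2 (0.0271 and 0.0278) and Pfkl (0.0356 and 0.0358) were called higher as well. Over all genes the calls went from 46 higher and 76 lower to 3 and 4 without co-culture DMSO replicate 1, and 4 and 9 without co-culture DMSO replicate 2. They were 24 and 26 without mono-culture DMSO replicate 1, and 28 and 48 without mono-culture DMSO replicate 2. Without mono-culture PLX4720 replicate 1 or 2 they were 66 and 76. Without co-culture PLX4720 replicate 1 or 2 they were 42 and 57 or 41 and 57.

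**Figure D2:**
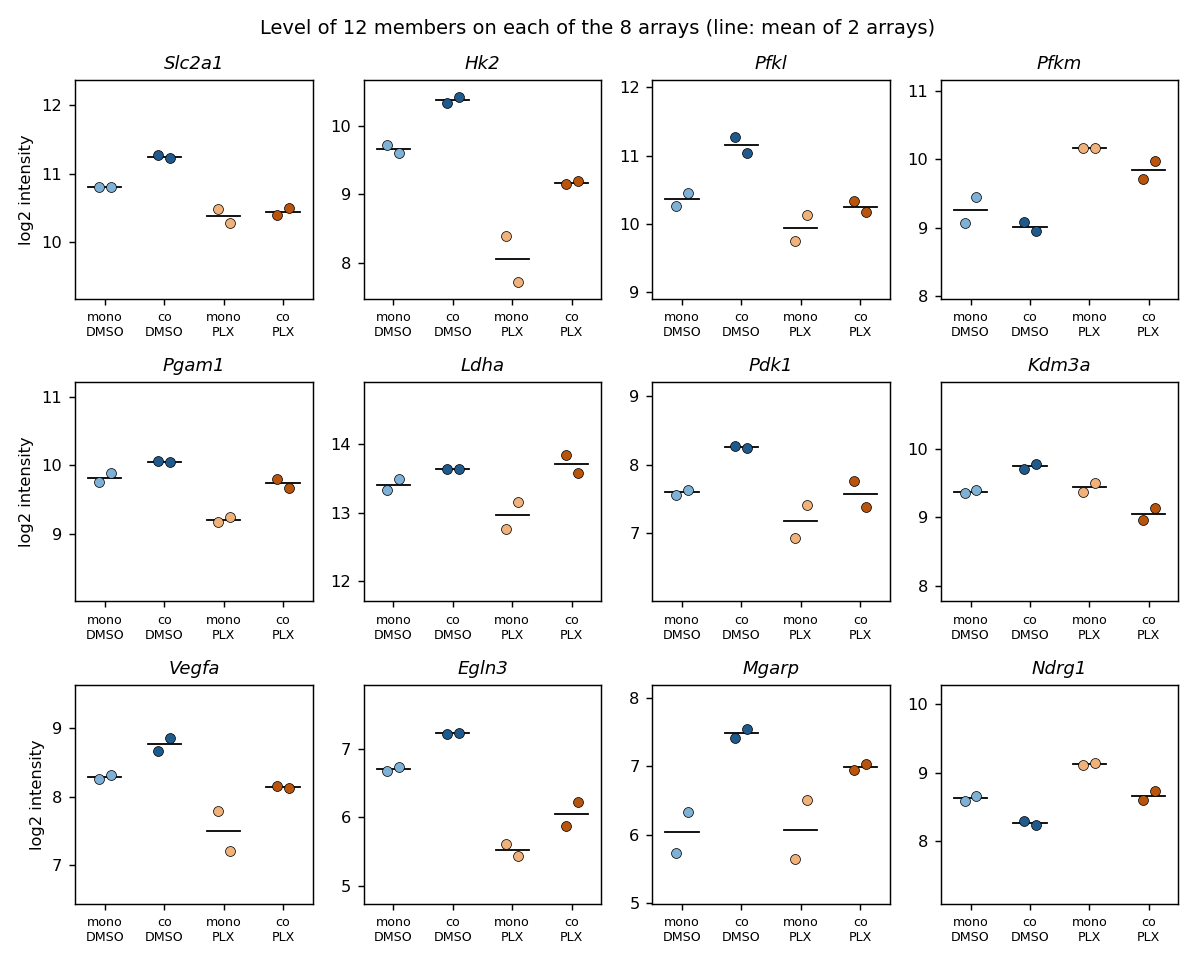
Log2 intensity of 12 members on each of the 8 arrays, with points for arrays, a line for the mean of the 2 arrays of a group and axes of equal span. Hk2 runs from 7.72 in mono-culture with PLX4720 to 10.43 in co-culture with DMSO, and the Mgarp arrays of each co-culture lie above those of the matching mono-culture.

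The same culture comparison under PLX4720 takes its group means from the other 4 arrays, with the spread again estimated over all 8. Here 4 members were called higher in co-culture (Hk2, Ldha, Pgam1 and P4ha1) and 1 lower (Ndrg1), against 3.89% and 3.47% of all genes. Hk2 stood at 8.39 and 7.72 in mono-culture and at 9.15 and 9.19 in co-culture, and was higher by 1.11 (SE 0.19, adjusted p = 0.0167), or 2.16-fold. Ldha, which turns pyruvate into lactate, stood at 12.77 and 13.16 against 13.85 and 13.59, higher by 0.76 (SE 0.16, adjusted p = 0.0295). Pgam1, a phosphoglycerate mutase of the lower part of glycolysis, stood at 9.17 and 9.24 against 9.80 and 9.67, higher by 0.53 (SE 0.12, adjusted p = 0.0359). In all 3 genes the groups did not overlap.

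P4ha1, a collagen prolyl hydroxylase subunit, was not detected on either mono-culture array with PLX4720, where it read 5.46 and 5.01. In co-culture it read 5.95 and 5.91, and was at least 1.31-fold higher. The fitted difference of 0.69, which uses the undetected levels, had an adjusted p of 0.0385. Ndrg1, a stress-response gene, went the other way. It read 9.12 and 9.14 in mono-culture and 8.61 and 8.73 in co-culture and was lower in co-culture, with a log2 fold change of -0.46 (SE 0.12, adjusted p = 0.0484).

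Egln3 (difference 0.52, adjusted p = 0.0581), Vegfa (0.64, 0.0634) and Mgarp (0.92, 0.0717) had non-overlapping arrays and did not pass. Arrays were apart in 17 of 30 members, 11 higher and 6 lower, against 54.3% of all genes, and the median difference was 0.11. These calls depended on the fit and on single arrays. Without the detection filter, with array weights or with only the 4 arrays compared, Hk2 alone stayed past the threshold, and P4ha1 did not pass without background subtraction (adjusted p = 0.138). Hk2 was lost without mono-culture PLX4720 replicate 2 (adjusted p = 0.0515) or co-culture PLX4720 replicate 1 (0.0939). Ldha was lost without co-culture DMSO replicate 1 (0.0539) or 2 (0.0527), mono-culture PLX4720 replicate 1 (0.12) or co-culture PLX4720 replicate 1 (0.139). Pgam1 was lost without co-culture DMSO replicate 1 (0.0701) or 2 (0.0686), mono-culture PLX4720 replicate 1 (0.124) or 2 (0.117) or co-culture PLX4720 replicate 1 (0.138). P4ha1 was lost without co-culture DMSO replicate 1 (0.0644) or 2 (0.0626), mono-culture PLX4720 replicate 2 (0.177) or co-culture PLX4720 replicate 1 (0.15) or 2 (0.0712). Ndrg1 held only without co-culture PLX4720 replicate 2, and reached 0.0622 and 0.0599 without mono-culture DMSO replicates 1 and 2, 0.0914 and 0.0905 without co-culture DMSO replicates 1 and 2, 0.131 and 0.17 without mono-culture PLX4720 replicates 1 and 2, and 0.165 without co-culture PLX4720 replicate 1. Calls were gained by Vegfa (0.0242) and Bnip3l (0.049) without mono-culture PLX4720 replicate 1 and by Mgarp (0.0409) without replicate 2, and by Hk1 (0.0285) without co-culture PLX4720 replicate 2. Over all genes the calls, 286 higher and 255 lower, rose to 294 and 355 without co-culture PLX4720 replicate 2. They fell with each other array left out, to 12 and 2 without co-culture PLX4720 replicate 1. Without mono-culture PLX4720 replicate 1 or 2 they were 167 and 97 or 54 and 47. Without co-culture DMSO replicate 1 or 2 they were 100 and 101 or 103 and 104. Without mono-culture DMSO replicate 1 or 2 they were 238 and 196 or 255 and 224.

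PLX4720 against DMSO was then compared within each culture. In mono-culture 8 members fell and 4 rose, against 18.6% of all genes lower and 20.2% higher. In co-culture 7 fell and 2 rose, against 12.7% lower and 14.3% higher. The calls over all genes in co-culture, 934 lower and 1053 higher, were 432 and 552 without co-culture DMSO replicate 1 and 474 and 543 without replicate 2. By the probes used, Hk2, Egln3, Slc2a1 and Vegfa fell in both cultures, and Pfkm and Ndrg1 rose in both. The mono-culture and co-culture comparisons share no array in their group means. They do share the normalisation and the estimate of spread over all 8 arrays, so they are not independent tests. Each drug comparison also shares arrays with the culture comparisons above. Hk2, Ldha, Pgam1 and P4ha1, higher in co-culture with PLX4720, were called lower with the drug in mono-culture, and Ndrg1 had the reverse calls. Both calls of each gene use the same mono-culture PLX4720 arrays and are not separate results. The fibroblast marker sum, given above, was higher with PLX4720 in both cultures. Of the 12 fibroblast markers kept, 7 were called higher with the drug in each culture. Twist2 was called lower in both and Pdpn in mono-culture. In DMSO, Col3a1, Acta2 and Col6a1 were called lower in co-culture than in mono-culture. The part of these markers in the results was not tested.

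The transcripts of Slc2a1 and Hk2 were lower under the drug. Slc2a1, the main glucose transporter of many cells, read 10.81 and 10.81 with DMSO and 10.48 and 10.27 with PLX4720 in mono-culture, and fell by 0.43 (SE 0.13, adjusted p = 0.0234). In co-culture it read 11.27 and 11.22 against 10.39 and 10.49, and fell by 0.81 (SE 0.13, adjusted p = 0.0017), or 1.75-fold. Hk2 had the largest change of any member. From the levels given above it fell by 1.61 (SE 0.19, adjusted p = 0.000295), or 3.05-fold, in mono-culture and by 1.22 (SE 0.19, adjusted p = 0.00189), or 2.32-fold, in co-culture. Hk1, the constitutive hexokinase, read 6.53 and 6.64 against 6.24 and 6.37 in mono-culture and 6.19 and 6.18 against 7.03 and 6.36 in co-culture, and passed in neither. Without co-culture PLX4720 replicate 2 Hk1 was called higher in co-culture (adjusted p = 0.0074). The call of Slc2a1 in mono-culture was lost without mono-culture DMSO replicate 1 (0.0833) or 2 (0.0748) or PLX4720 replicate 2 (0.141), and the other calls of Slc2a1 and Hk2 with the drug held with each array left out.

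The phosphofructokinase genes, which control the committed step of glycolysis, moved apart. Pfkl read 10.27 and 10.46 against 9.75 and 10.13 in mono-culture (difference -0.43, adjusted p = 0.0655), and 11.27 and 11.03 against 10.33 and 10.17 in co-culture, where it fell by 0.90 (SE 0.16, adjusted p = 0.00375). Pfkm, the muscle type, read 9.07 and 9.45 against 10.17 and 10.17 in mono-culture and rose by 0.91 (SE 0.16, adjusted p = 0.0018), or 1.88-fold. In co-culture it read 9.08 and 8.95 against 9.71 and 9.97 and rose by 0.82 (SE 0.16, adjusted p = 0.00468), or 1.77-fold. Pfkp, the platelet type, passed in neither culture (differences 0.39 and 0.08). The calls of Pfkm and of Pfkl in co-culture held with each array left out, and Pfkl was also called lower in mono-culture without mono-culture PLX4720 replicate 2 (0.0317).

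Of the lower part of the pathway and lactate production, 6 members were kept, and with PLX4720 in mono-culture 3 fell and 1 rose. None of the 6 passed in co-culture, and the difference between cultures was tested separately, with the values given below. Pgam1 read 9.75 and 9.89 with DMSO and 9.17 and 9.24 with PLX4720 in mono-culture and fell by 0.62 (SE 0.12, adjusted p = 0.00383). Its co-culture levels of 10.06 and 10.05 against 9.80 and 9.67 differed by -0.31 (adjusted p = 0.0884). Ldha read 13.33 and 13.50 against 12.77 and 13.16 in mono-culture and fell by 0.46 (SE 0.16, adjusted p = 0.0487). In co-culture its levels of 13.64 and 13.64 against 13.85 and 13.59 overlapped. Pgk1, phosphoglycerate kinase, read 5.67 and 6.19 with DMSO in mono-culture. It was not detected on either PLX4720 array of the mono-culture (4.95 and 5.54), which puts it at least 1.31-fold lower. The fitted difference of -0.69, which uses the undetected levels, had an adjusted p of 0.0367. Eno2, the neuronal enolase, rose from 5.60 and 5.73 to 6.53 and 6.13 (log2 fold change 0.66, SE 0.23, adjusted p = 0.0445). Gapdh and Pkm, both at levels above 13.9 on every array, passed in no comparison, and neither did Aldoa or Tpi1.

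The call of Pgam1 in mono-culture held with each array left out. Ldha was lost without mono-culture DMSO replicate 1 (adjusted p = 0.0861) or 2 (0.185), co-culture DMSO replicate 1 (0.0775) or 2 (0.0751) or mono-culture PLX4720 replicate 1 (0.294). Pgk1 was lost without mono-culture DMSO replicate 2 (0.215) or PLX4720 replicate 1 (0.241). Eno2 was lost without mono-culture DMSO replicate 1 (0.167) or 2 (0.0891) or PLX4720 replicate 1 (0.235). Without background subtraction Pgk1 (0.0973) and Eno2 (0.0762) did not pass, and without the detection filter Ldha (0.0919), Pgk1 (0.0919) and Eno2 (0.109) did not. In co-culture Eno2 was called higher without co-culture PLX4720 replicate 1 (0.0436).

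Among the regulators of pyruvate use, Pdk1 read 8.27 and 8.25 with DMSO and 7.76 and 7.37 with PLX4720 in co-culture and fell by 0.69 (SE 0.18, adjusted p = 0.0203). In mono-culture it read 7.55 and 7.63 against 6.93 and 7.41 and did not pass (difference -0.42). The co-culture call was lost without co-culture DMSO replicate 1 (0.0991) or 2 (0.0833) or PLX4720 replicate 2 (0.122), and a mono-culture call was gained without mono-culture PLX4720 replicate 2 (0.0303). Pfkfb4, which sets the level of a phosphofructokinase activator, had a difference of 0.42 in co-culture (adjusted p = 0.0591) and was called higher without co-culture PLX4720 replicate 1 (0.034). Pdk3 passed in neither culture.

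Of the HIF pathway's own genes, Egln3 fell in both cultures. It read 6.67 and 6.73 with DMSO and 5.60 and 5.44 with PLX4720 in mono-culture, where it was detected on 1 of the 2 drug arrays, and 7.21 and 7.23 against 5.87 and 6.22 in co-culture. The log2 fold change was -1.18 (SE 0.14) in both, with an adjusted p of 0.00031 (mono-culture) and 0.000478 (co-culture). Both calls held with each array left out. Without background subtraction the changes were smaller, at -0.46 and -0.56, and passed the test. Hif1a read 7.20 and 6.90 against 7.35 and 7.61 in mono-culture (difference 0.43, adjusted p = 0.0554) and 7.37 and 7.61 against 7.39 and 7.33 in co-culture (difference -0.13). Without mono-culture DMSO replicate 1 Hif1a was called higher in mono-culture (0.0454). By the probe used, Egln1 was not detected on the drug arrays of either culture and was at least 1.10-fold lower in mono-culture. The fitted difference there was -0.55, with an adjusted p of 0.0517, short of the threshold. That probe was called lower without mono-culture DMSO replicate 2 (0.035) or PLX4720 replicate 2 (0.0202). Another kept Egln1 probe read 5.72 on co-culture PLX4720 replicate 1, above the lowest detected signal of that array (5.54). Its drug differences of 0.15 in mono-culture and -0.68 in co-culture did not pass.

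Vegfa, the angiogenic growth factor, read 8.26 and 8.32 with DMSO and 7.79 and 7.21 with PLX4720 in mono-culture and fell by 0.79 (SE 0.18, adjusted p = 0.00763), or 1.73-fold. In co-culture it read 8.67 and 8.86 against 8.15 and 8.12 and fell by 0.63 (SE 0.18, adjusted p = 0.0299). The mono-culture call held with each array left out, and the co-culture call was lost without co-culture DMSO replicate 1 (0.0734) or 2 (0.168) or PLX4720 replicate 1 (0.0861) or 2 (0.108), under median scaling (0.072) and without the detection filter (0.066). Adm, which encodes the vasodilator peptide adrenomedullin, passed in no comparison.

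Kdm3a, a histone demethylase, read 9.70 and 9.78 with DMSO and 8.97 and 9.13 with PLX4720 in co-culture. By the probe used it fell by 0.69 (SE 0.13, adjusted p = 0.00359), a call that held with each array left out. Its other kept probes did not pass, with values given below. In mono-culture Kdm3a read 9.36 and 9.39 against 9.37 and 9.51, and the groups overlapped. Ndrg1 rose from 8.59 and 8.66 to 9.12 and 9.14 in mono-culture (0.50, SE 0.12, adjusted p = 0.00906) and from 8.30 and 8.23 to 8.61 and 8.73 in co-culture (0.40, SE 0.12, adjusted p = 0.0342). Of the collagen-modifying enzymes, Plod2, a lysyl hydroxylase, rose from 6.60 and 6.82 to 7.23 and 7.31 in mono-culture (0.56, SE 0.13, adjusted p = 0.00748). P4ha1 read 5.67 and 5.85 with DMSO in mono-culture and, undetected with the drug there, was at least 1.17-fold lower. Its fitted difference of -0.53, which uses the undetected levels, had an adjusted p of 0.0296.

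Among these, Ndrg1 lost its mono-culture call without mono-culture DMSO replicate 1 (0.0529) and its co-culture call without co-culture DMSO replicate 1 (0.126) or 2 (0.187) or PLX4720 replicate 2 (0.112). Plod2 was lost without mono-culture DMSO replicate 1 (0.0565), and P4ha1 without mono-culture DMSO replicate 1 (0.0553) or 2 (0.133) or PLX4720 replicate 2 (0.2) and without background subtraction (0.178). Under median scaling Ndrg1 did not pass in mono-culture (0.0791) or co-culture (0.0501). P4ha2, Plod1, Bnip3l and Mgarp passed in neither drug comparison. Arrays of the drug groups were apart in 22 of the 30 members in mono-culture (10 higher, 12 lower) and in 21 in co-culture (7 higher, 14 lower), against 71.5% and 65.6% of all genes. The median over the members was 0.04 and -0.04, and 0.01 over all genes in both cultures.

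The last comparison asked whether the drug effect differed between cultures. None of the 30 members passed, against 0.0408% of all genes with a higher and 0.0816% with a lower effect in co-culture. An unadjusted p under 0.05 was reached by 3 members with a higher and 2 with a lower effect, and the share of all genes there was not counted. Kdm3a came nearest, with a drug effect of 0.06 in mono-culture and -0.69 in co-culture, a difference of -0.76 (SE 0.18, 95% interval -1.15 to -0.36, adjusted p = 0.0928). Its co-culture arrays lay above the mono-culture arrays with DMSO and below them with PLX4720. P4ha1 (0.73, adjusted p = 0.174), Hk1 (0.79, 0.201), Hif1a (-0.55, 0.247) and Ldha (0.54, 0.277) followed. For Hk2 the difference was 0.39 with an interval from -0.23 to 1.01, and for Pgam1 0.30 with an interval from -0.09 to 0.69. For Egln3 it was near 0, with an interval from -0.46 to 0.46.

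**Figure D3:**
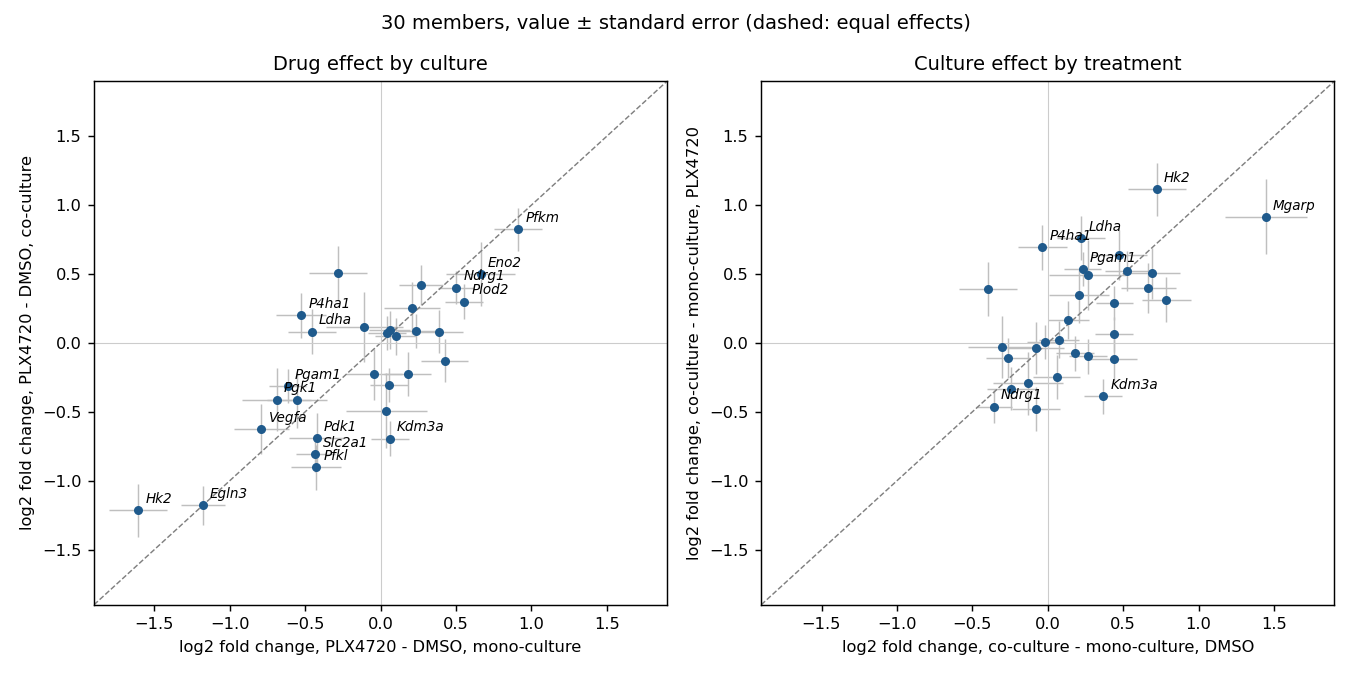
Left, log2 fold change with PLX4720 in mono-culture (x axis) against co-culture (y axis); right, log2 fold change of co-culture over mono-culture in DMSO (x axis) against PLX4720 (y axis). Points are the 30 members, bars the standard error and the dashed line equal effects, with names for members called in either and for Kdm3a. Hk2 and Egln3 lie at the lower left of the left panel, Pfkm at the upper right, and Kdm3a has opposite signs in the right panel.

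Of the members kept, 9 had more than 1 kept probe, which allowed a check of direction. In the drug comparisons all kept probes of a gene pointed the same way in 5 of the 9 genes in mono-culture (not Egln1, Kdm3a, Pfkl and Tpi1) and in 7 in co-culture (not Pfkp and Tpi1). Another Pfkm probe rose by 1.08 in mono-culture and by 0.67 in co-culture, while the remaining probe had differences of 0.34 and 0.14 that did not pass. The other Vegfa probe fell by 1.09 and 0.66. The other Kdm3a probes had differences of -0.35 and -0.44 in co-culture that did not pass (adjusted p = 0.127 and 0.0531 over all kept probes). Between cultures their drug effects differed by -0.34 and -0.63, which did not pass either. The other Pfkl probe passed in neither culture, with differences of 0.09 (mono-culture) and -0.46 (co-culture). The other Ndrg1 probe also passed in neither, with 0.32 in mono-culture (adjusted p = 0.153) and 0.47 in co-culture (0.0612). Between cultures with PLX4720 that Ndrg1 probe had a difference of -0.28 and did not pass (0.316). A Tpi1 probe fell by 0.54 in mono-culture (adjusted p = 0.0446), where the probe used had a difference of 0.24 that did not pass. In the culture comparisons 6 of the 9 genes agreed in direction in each (not Gapdh, Pfkm and Pfkp with DMSO, and not Egln1, Gapdh and Pfkl with PLX4720).

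**Figure D4:**
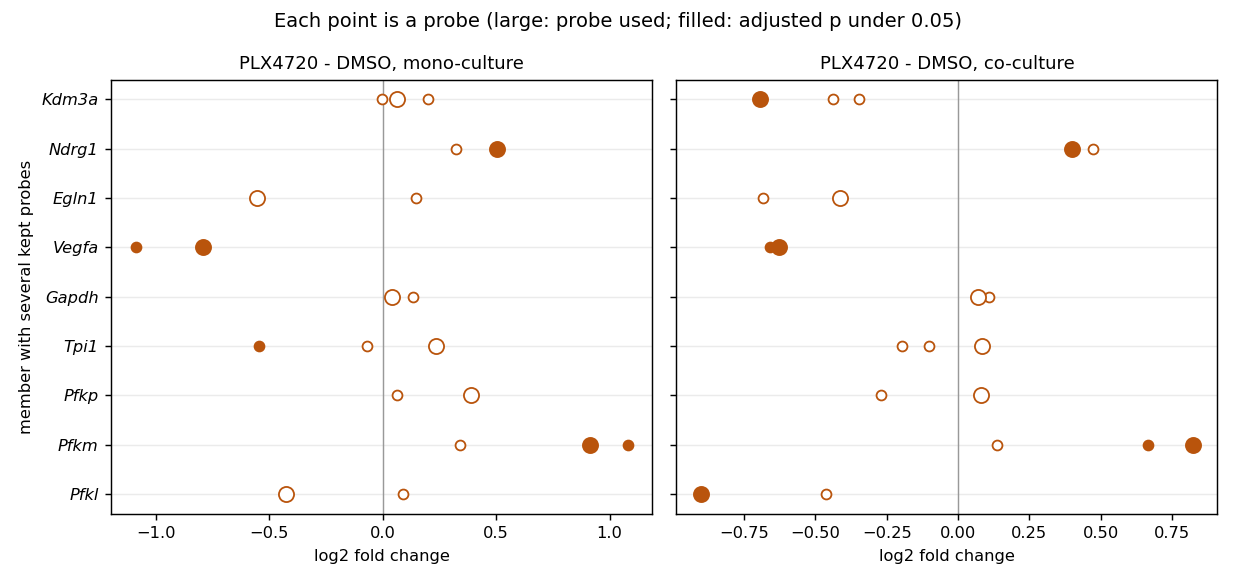
Log2 fold change with PLX4720 (x axis) of every kept probe of the 9 members with several, in mono-culture (left) and co-culture (right), with a large point for the probe used and a filled point for an adjusted p under 0.05 over all kept probes. Both Vegfa probes and 2 of 3 Pfkm probes are filled in both panels, while the Tpi1 probes fall on both sides of 0.

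The remaining 14 members gave no level. Aldoc, Bnip3, Car9, Higd1a, Mxi1, Pfkfb3, Slc16a1, Slc16a3 and Slc2a3 were detected on no array. They include carbonic anhydrase 9 and the lactate transporters Slc16a1 and Slc16a3. Ankrd37, Eno1, Ero1l, Gpi1 and Ldhb had no probe under a name that could be matched and were not analysed here. Of the 30 members kept, 23 were detected on all 8 arrays, and Adm, Egln1, P4ha1 and Pgk1 had a group in which no array detected them.

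A wider list of 40 other HIF and hypoxia response genes, of which 26 were kept, also held both falling and rising genes with the drug. In mono-culture 9 fell and 6 rose (median -0.07), against 18.6% and 20.2% of all genes, and in co-culture 7 fell and 3 rose (median -0.16), against 12.7% and 14.3%. Tfrc, the transferrin receptor, fell by 2.15 (SE 0.20) in mono-culture and 1.08 (SE 0.20) in co-culture. Stc2, a secreted glycoprotein, was undetected with the drug in mono-culture and at least 3.18-fold lower, and it fell by 1.80 (SE 0.17) in co-culture. Ak4, a mitochondrial adenylate kinase, was at least 1.81-fold lower in mono-culture and fell by 1.14 (SE 0.17) in co-culture. Pgf, a growth factor of the Vegfa family, was at least 1.54-fold lower in mono-culture. Hmox1, the haem-degrading oxygenase, rose by 0.53 (SE 0.17) and 0.86 (SE 0.17).

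In the same list none was called between cultures in DMSO (median 0.17), against 0.625% of all genes higher and 1.03% lower. With PLX4720, Tfrc (1.84, SE 0.20, adjusted p = 0.00395) and Bhlhe40 (0.81, SE 0.15, adjusted p = 0.0217) were higher in co-culture. Ak4 was also higher, by at least 1.07-fold, with an adjusted p of 0.0393 for the fitted levels. Ddit4 was lower (-0.92, SE 0.23, adjusted p = 0.0464). Over all genes 3.89% were called higher and 3.47% lower with PLX4720. Of 11 further genes of the HIF machinery, 4 were kept (Arnt, Egln2, Rbx1 and Ep300) and none passed in any comparison.

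Of 32 other genes of glucose and pyruvate metabolism, 12 were kept. With PLX4720 in mono-culture 4 rose and 3 fell, against 20.2% and 18.6% of all genes. In co-culture 2 rose and 2 fell, against 14.3% and 12.7%. Slc2a6, a glucose transporter family member, rose by 0.66 (SE 0.19) in mono-culture and 1.83 (SE 0.19) in co-culture, and Eno3, the muscle enolase, by 0.62 (SE 0.14) and 1.13 (SE 0.14). Pdp1 and Pdp2, phosphatases that activate pyruvate dehydrogenase, fell by 0.53 (SE 0.17) and 0.43 (SE 0.12) in mono-culture and by 0.68 (SE 0.17) and 0.55 (SE 0.12) in co-culture. Between cultures only Pgm1 was called, higher in co-culture with PLX4720 (0.48, SE 0.12, adjusted p = 0.0423), where 3.89% of all genes were higher.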

How the data were processed

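The authors deposited, for 8 arrays of total RNA amplified and labelled with biotin, a table of non-normalised bead intensities with a detection p-value per probe. They also deposited a table of log2 values, which equalled quantile-normalised log2 intensities without background subtraction to within 5e-09. The submitters' processing notes name lumi with no version. Deposited intensities were background-corrected with limma 3.58.1 in R 4.3.3, with negative controls inferred from the detection p-values and an offset of 16, quantile-normalised and put on the log2 scale. Of 25697 probes, 23978 had 1 gene name in the platform annotation and 1719 had several or none, and 23962 matched a current RefSeq symbol. After the detection filter 10039 named probes remained, and the brightest kept probe stood for its gene in 7357 genes, of which 1953 had several. Group means over all 8 arrays were fitted with lmFit and eBayes (4 residual degrees of freedom, 5.49 prior), with Benjamini-Hochberg adjustment over all genes. Their number limits the precision of the arrays. A gene not detected in a group has only a bound there, given as "at least" a fold against the lowest signal among detected probes. An adjusted p given with a bound comes from the fitted levels, including undetected ones, and does not test the bound.

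Per-array values are given for members that passed in any comparison and for the 6 with the smallest p in co-culture with DMSO. Those of Hk1 and Hif1a were added after their values were seen. From the other lists genes are named with fold changes, up to 4 by p in a comparison or where few passed. The members and lists were chosen with earlier results of these data known. The study's methods name no test for single genes on these arrays. Its ranking metric, a t statistic, was run as an alternative, as were other background corrections, scalings, filters, probe rules and weights, and each array left out. Deviations of arrays with the same replicate number correlated between -0.0836 and 0.0899, so the numbers were not used as pairs.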

Additional observations from a re-analysis of the deposited data

How the results depend on the processing

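Over the 150 results of the 30 members in 5 comparisons, the alternatives kept the side of the threshold in 2709 cases, lost a call in 127 and gained one in 69. Direction was followed for the 60 results with an unadjusted p under 0.05 and turned in 1 case, Egln1 with PLX4720 in mono-culture without co-culture PLX4720 replicate 2 (0.15), where another probe of the gene was used; with the other arrays left out its lowest value was -0.80. With an array left out, the members called numbered 0 to 3 for co-culture in DMSO (1 with all arrays), 0 to 5 for co-culture in PLX4720 (5), 7 to 13 for the drug in mono-culture (12), 6 to 10 for the drug in co-culture (9) and 0 for the difference of drug effects. For co-culture in DMSO the count was 6 without background subtraction and with the authors' log2 values, 4 with an offset of 50 and 0 without a filter. It was 2 with detection on all 8 arrays, 2 with array weights and 3 with only the 4 arrays compared. Over all genes the calls there moved too, from 46 higher and 76 lower. They were 97 and 113 without background subtraction and with the authors' values, and 92 and 106 with an offset of 50. Without a filter they were 29 and 36 of 16593 genes. They were 50 and 63 with detection on all 8 arrays, 113 and 131 with array weights, and 56 and 58 with only the 4 arrays. For co-culture in PLX4720, 8 members were called without background subtraction and with the authors' values. With no filter, with array weights or with only the 4 arrays compared it was 1 member. Over all genes the calls there went from 286 higher and 255 lower to 459 and 428 without background subtraction and with the authors' values. They were 104 and 92 of 16593 genes without a filter, 99 and 98 with array weights, and 95 and 95 with only the 4 arrays. The difference of drug effects gave 1 call, Kdm3a, without background subtraction (adjusted p = 0.0324), with the authors' values (0.0324) and with an offset of 50 (0.0474). Over all genes the calls there went from 3 higher and 6 lower to 59 and 36, 59 and 36, and 72 and 50. The cause of these changes was not tested. The methods' t-test after adjustment called 0 members in every comparison between groups. Over all 7357 genes it called 3 higher and 4 lower for the drug in co-culture and 0 in the other comparisons. At an unadjusted p under 0.05 it gave 12, 3, 6 and 13 members in the order above, and the share of all genes there was not counted. With the replicate number as a replicate block, 1, 5, 10, 9 and 0 members were called. Mgarp was gained and Ndrg1 lost for co-culture in PLX4720, and Eno2 (adjusted p = 0.0536) and Ldha (0.057) were lost for the drug in mono-culture. All genes called with the block were 43 higher and 73 lower, 274 and 257, 1461 and 1354, 1032 and 889, and 27 and 25, in the same order. All genes called under median scaling were 339 higher and 112 lower for co-culture in PLX4720 (286 and 255 by quantiles), 1098 and 567 for the drug in co-culture (1053 and 934), 1033 and 1352 in mono-culture (1483 and 1367), and 85 and 25 for the difference (3 and 6), where the median of all genes moved to 0.16. Levels near the detection limit, as for P4ha1, Pgk1, Egln1 and Adm, have little signal over background.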

Other observations

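Genes of 2 pathways next to glycolysis were also compared. With PLX4720 in mono-culture 18.6% of all genes were called lower and 20.2% higher, and in co-culture 12.7% and 14.3%. Of 16 genes of the tricarboxylic acid cycle, 13 were kept, and with PLX4720 in mono-culture Idh3a (fell by 0.49, SE 0.15), Suclg2 (fell by 0.60, SE 0.16) and Mdh2 (fell by 0.39, SE 0.13) were called lower, with a median of -0.16. In co-culture Ogdh rose (0.52, SE 0.15, adjusted p = 0.0274) and the median was 0.06. Of 7 pentose phosphate genes 4 were kept, and Rpia, which isomerises ribose phosphate, fell by 0.85 (SE 0.20, adjusted p = 0.00812) with the drug in mono-culture. None of either list was called between cultures, against 0.625% of all genes higher and 1.03% lower in DMSO and 3.89% and 3.47% with PLX4720.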
